A study of Mus musculus with 24 samples.

Results

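The 10 genes described here are matrix metalloproteinases, inhibitors of matrix metalloproteinases and members of the ADAM family, followed through mouse bone marrow-derived macrophages of 4 genotypes with and without R837. They are the gelatinase Mmp9, the collagenases Mmp13 and Mmp8, the membrane-anchored collagenase Mmp14, the macrophage elastase Mmp12, Mmp19, the ADAM genes Adam8 and Adam19, and the inhibitors Timp1 and Timp2. They were chosen by name from the 52636 genes in each file, and all 10 were among the 14681 genes with enough counts to be tested. They and the lists of related genes below were chosen with earlier results of these data known. Their counts set beside the shares of all genes are therefore a description. RNA-seq had been run on 24 libraries in 8 groups of 3. The groups, each after 8 h of R837 and each untreated, were TBK1-cKD ∆IKKe (a conditional TBK1 knockout with an IKKe knockout, per the series record), TBK1-cKD ∆control (the conditional TBK1 knockout), TBK1-WT ∆IKKe (the IKKe knockout) and TBK1-WT ∆control. R837 (imiquimod) is a small-molecule agonist of TLR7, an endosomal receptor for single-stranded RNA. TBK1 and IKKe are related kinases of the IkB kinase family that act downstream of innate immune receptors. The 3 libraries of a group came from individual mice, per the labels' protocols. The labels give neither what drives deletion in the conditional TBK1 animals, nor what ∆control stands for, nor the age of the mice, and their protocol text mentions only wild-type C57BL/6N mice for all 24 libraries. That text also names R837 treatment for all 24 libraries, so treated and untreated go by the titles.

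Matrix metalloproteinases are zinc-dependent enzymes, mostly secreted as inactive proenzymes, that cut collagen, elastin and other matrix proteins as well as cytokines and chemokines. ADAMs are membrane-bound relatives with a disintegrin domain, and many of them release the outer part of other membrane proteins. TIMPs bind the active site of matrix metalloproteinases and block them, TIMP1 poorly for membrane-anchored MMP14 and TIMP2 for a wide set of these enzymes. Macrophages make MMP12 constitutively and make MMP9, MMP13 and MMP14 in inflammation. RNA levels, which were measured here, say nothing of proenzyme activation or of the balance of enzyme and inhibitor protein.

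The libraries held 19.7 to 41.3 M gene counts (median 31.4 M). Replicate 2 of R837-treated TBK1-cKD ∆control, the shallowest, stood apart, with 14226 genes that had a count, against 17519 to 19804 in the other 23 libraries, and with r of 0.948 and 0.946 (log2 CPM over genes) to the other two of its group, against at least 0.975 between replicates elsewhere. Without it 7 members rose and 1 fell with R837 in TBK1-cKD ∆control and 4 were higher than in TBK1-WT ∆control, as with it, and of the member calls only the Mmp13 interaction after R837 was lost. Replicate 1 of R837-treated TBK1-WT ∆control and replicate 3 of R837-treated TBK1-cKD ∆IKKe also stood apart. Their r to the others of their groups was 0.975 to 0.978. Relative to counting noise, their counts differed from those of their groups by a chi-square per gene of 105 to 134. For the shallowest library it was 18.3 and 19.3. The 7 macrophage markers were detected in every group, with summed levels of 15641 to 30249.8 CPM (CPM, the share of a library's counts on a per-M-reads scale, after TMM scaling of the libraries), whereas dendritic cell, lymphocyte and mast cell markers each summed to at most 2.61 CPM. In untreated TBK1-cKD ∆IKKe the macrophage markers summed to 22388 to 23677 CPM, against 15641 to 18222.5 CPM in the other untreated groups. The treated groups lay at 22655 to 30249.8 CPM. Osteoclast, neutrophil and stromal marker sums are given below. Tbk1 RNA averaged 123 CPM in R837-treated TBK1-cKD ∆IKKe, 101 CPM in R837-treated TBK1-cKD ∆control, 120.0 CPM in R837-treated TBK1-WT ∆IKKe and 130.0 CPM in R837-treated TBK1-WT ∆control, and 89.0 CPM in untreated TBK1-cKD ∆IKKe, 74.6 CPM in untreated TBK1-cKD ∆control, 102 CPM in untreated TBK1-WT ∆IKKe and 102 CPM in untreated TBK1-WT ∆control. Ikbke RNA, which encodes IKKe, averaged 139.9 CPM in R837-treated TBK1-cKD ∆IKKe, 242 CPM in TBK1-cKD ∆control, 75.6 CPM in TBK1-WT ∆IKKe and 286 CPM in TBK1-WT ∆control. In untreated cells it averaged 79.6 CPM in TBK1-cKD ∆IKKe, 73.8 CPM in TBK1-cKD ∆control, 35.1 CPM in TBK1-WT ∆IKKe and 59.5 CPM in TBK1-WT ∆control. Ikbke RNA was therefore not lower in the untreated libraries labelled TBK1-cKD ∆IKKe than in untreated TBK1-WT ∆control, and every direction given for that group goes by its label. A gene count does not tell transcripts with a deleted exon from intact ones. The nuclear RNAs Malat1, Neat1 and Xist split the libraries into 14 of high level (mean log2 CPM 8.94 to 9.46) and 10 of low level (5.25 to 5.64). All 12 untreated libraries were of the high level, as were replicate 1 of R837-treated TBK1-WT ∆control and replicate 3 of R837-treated TBK1-cKD ∆IKKe, so that this level and R837 can be told apart only through those 2 libraries.

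Mmp13, Mmp12 and Mmp8 lie close together on chromosome 9 of GRCm38, Mmp13 (ENSMUSG00000050578) at chr9:7272514-7283331, Mmp12 (ENSMUSG00000049723) at chr9:7344381-7369499 and Mmp8 (ENSMUSG00000005800) at chr9:7558456-7568485, all on the plus strand. Mmp9 (ENSMUSG00000017737) is at chr2:164940780-164955850, Mmp14 (ENSMUSG00000000957) at chr14:54431612-54445364 and Mmp19 (ENSMUSG00000025355) at chr10:128790910-128800824, each on the plus strand. Adam8 (ENSMUSG00000025473) is at chr7:139978932-139992562 on the minus strand and Adam19 (ENSMUSG00000011256) at chr11:46055992-46147343 on the plus strand. Timp1 (ENSMUSG00000001131) is at chrX:20870166-20874735 on the plus strand and Timp2 (ENSMUSG00000017466) at chr11:118301069-118355740 on the minus strand. All 10 are annotated as protein coding, and the values are sums over their exons. The library kit keeps no strand, so reads cannot be assigned where exons overlap a gene on the other strand, which concerns 157 bases of Mmp12, 1001 bases of Mmp19, 46 bases of Adam8 and 1067 bases of Adam19.

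The RefSeq promoter table matched 8 of the 10 members, all but Mmp9 and Mmp19. The promoters of the 4 matched members whose mean level varied by the largest factor across the 8 groups are shown to let the start regions of genes with unlike patterns be read side by side. Each runs from 250 bases before to 50 bases after an annotated start (RefSeq, GRCm38.p6). Capitals mark matches to an AP-1 motif (TGANTCA, the same on both strands), an NF-kB motif on either strand and a TATA box (TATAAA, or TTTATA on the other strand), which were found in 7.81%, 4.79% and 13.6% of all 32851 promoters of this length.
Mmp13, chr9:7272264-7272563, plus strand: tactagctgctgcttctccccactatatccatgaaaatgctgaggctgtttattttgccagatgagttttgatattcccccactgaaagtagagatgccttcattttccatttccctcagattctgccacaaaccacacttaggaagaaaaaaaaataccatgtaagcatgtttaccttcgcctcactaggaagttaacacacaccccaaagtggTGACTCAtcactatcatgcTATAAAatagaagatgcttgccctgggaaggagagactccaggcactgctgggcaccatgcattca
Mmp14, chr14:54431348-54431647, plus strand: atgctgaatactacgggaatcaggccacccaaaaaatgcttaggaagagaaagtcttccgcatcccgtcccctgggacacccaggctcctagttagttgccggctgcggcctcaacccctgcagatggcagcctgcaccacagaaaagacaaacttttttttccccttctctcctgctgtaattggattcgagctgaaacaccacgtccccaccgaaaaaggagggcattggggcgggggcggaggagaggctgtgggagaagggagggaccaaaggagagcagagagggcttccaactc
Adam19 promoter 2, chr11:46055734-46056033, plus strand: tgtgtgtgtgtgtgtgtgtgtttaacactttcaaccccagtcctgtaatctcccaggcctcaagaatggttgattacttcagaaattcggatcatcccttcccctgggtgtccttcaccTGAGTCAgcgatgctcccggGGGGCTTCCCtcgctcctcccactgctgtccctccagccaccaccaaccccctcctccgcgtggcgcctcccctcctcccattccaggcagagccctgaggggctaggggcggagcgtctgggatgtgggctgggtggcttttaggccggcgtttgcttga
Timp1, chrX:20869916-20870215, plus strand: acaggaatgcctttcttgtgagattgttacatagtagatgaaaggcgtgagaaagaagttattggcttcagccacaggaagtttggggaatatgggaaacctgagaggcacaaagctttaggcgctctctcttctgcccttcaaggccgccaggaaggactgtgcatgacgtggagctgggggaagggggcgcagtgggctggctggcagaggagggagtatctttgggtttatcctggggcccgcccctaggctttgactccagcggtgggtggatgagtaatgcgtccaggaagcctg
The Mmp13 window held an AP-1 match, TGACTCA, from base 216 of the window and a TATA match from base 235. The second of 3 annotated Adam19 promoters held an AP-1 match, TGAGTCA, from base 120 and an NF-kB match, GGGGCTTCCC, from base 140, and the other two held neither. In the Mmp14 and Timp1 windows these letters were not found. Among the other members, Mmp12 held an AP-1 and a TATA match in its second promoter and none in its first, Mmp8 held a TATA match on the minus strand, and Timp2 and Adam8 held none. The matches are a description of letters and were not tested against the expression values.

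Expression of the family was changed by R837 in every genotype, upward for most members and downward for Timp2. Comparisons were made with edgeR's quasi-likelihood test, with Benjamini-Hochberg adjustment over all 14681 genes and a threshold of 0.05 on the adjusted p, and fold changes are given as log2 with a standard error. In TBK1-cKD ∆IKKe 9 of the 10 members rose and 1 fell, against 31.6% of all genes tested that rose and 34.8% that fell. In TBK1-cKD ∆control 7 rose and 1 fell (31.6% and 37.5% of all genes). In TBK1-WT ∆IKKe 8 rose and 1 fell (32.4% and 37.8%), and in TBK1-WT ∆control 8 rose and 1 fell (30.6% and 32% of all genes). The median log2 response of the 10 members was 1.497 in TBK1-cKD ∆IKKe, 1.71 in TBK1-cKD ∆control, 1.90 in TBK1-WT ∆IKKe and 1.59 in TBK1-WT ∆control, and that of all genes tested lay between -0.08 and -0.04. In bulk RNA a change in the share of cells that make a transcript and a change in RNA per cell cannot be told apart.

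**Figure D1:**
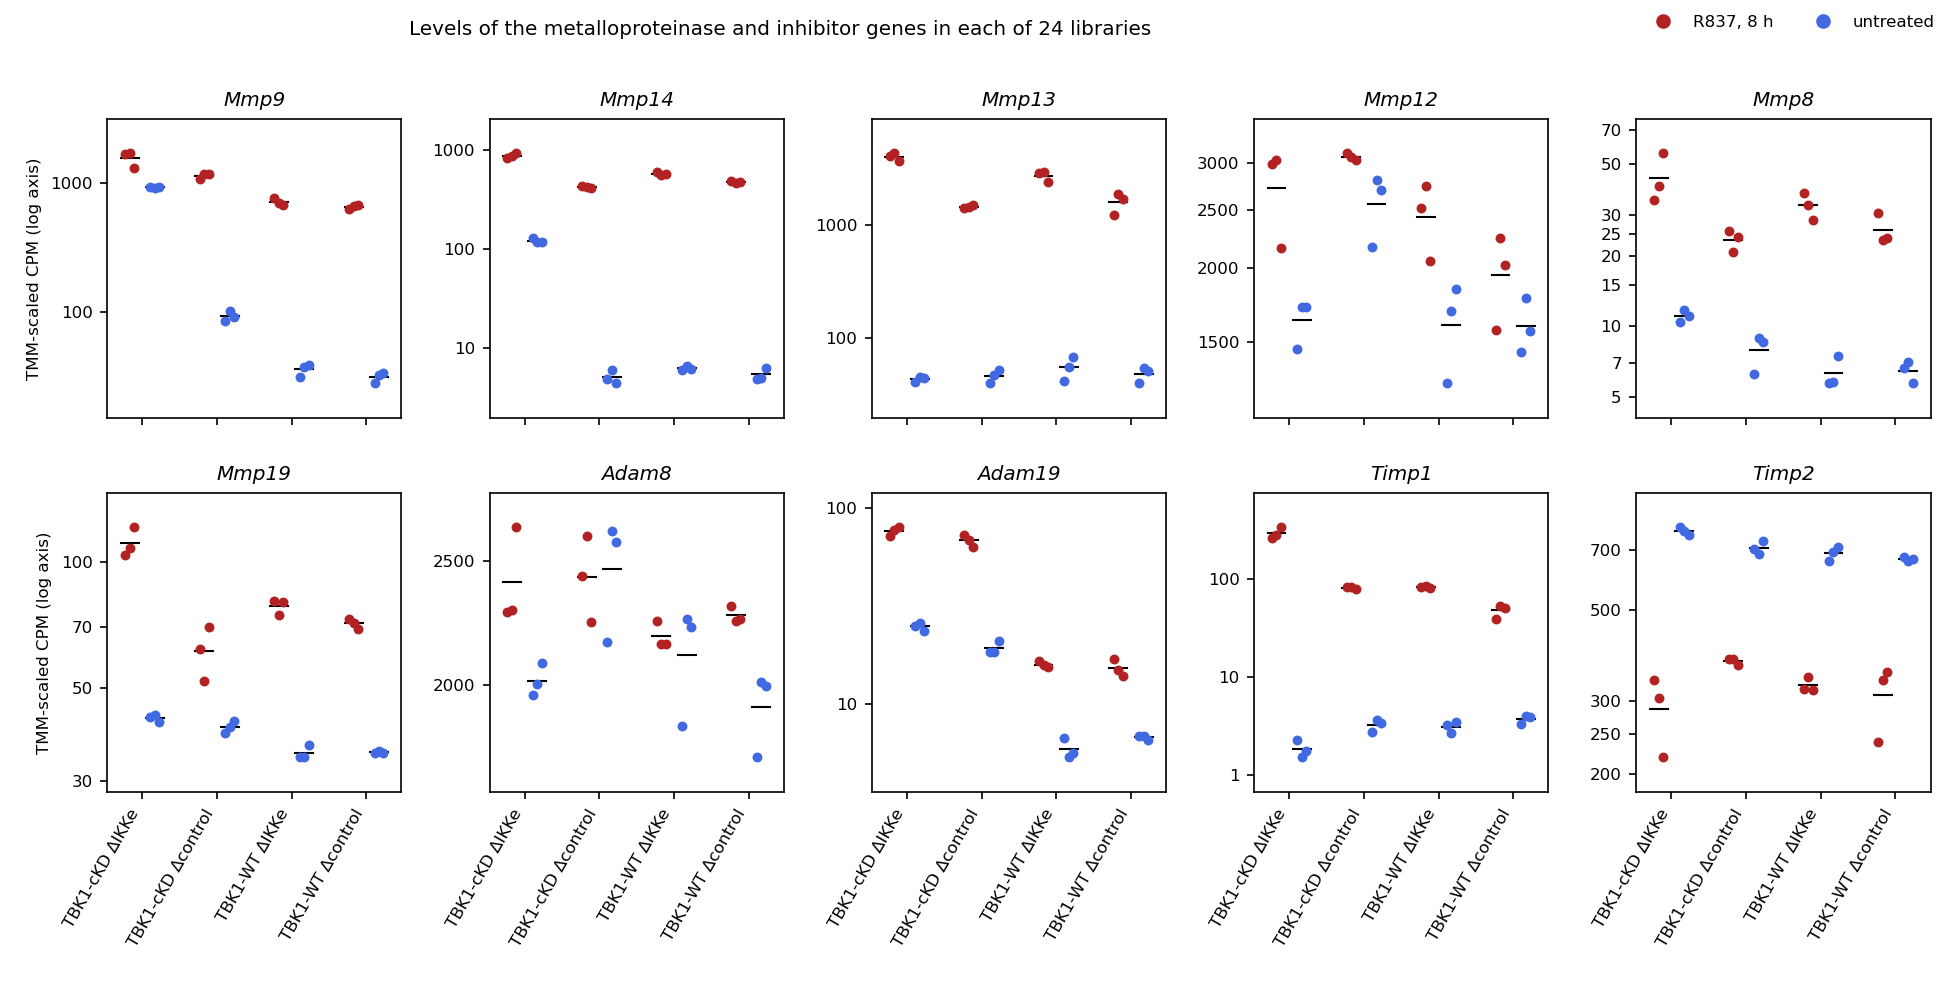
Level of each of the 10 genes in every library (TMM-scaled CPM, log axis), R837-treated groups left of untreated groups and genotypes from TBK1-cKD ∆IKKe to TBK1-WT ∆control, with a black line at each group's mean. Mmp9 and Mmp14 in untreated TBK1-cKD ∆IKKe stand far above the other 3 untreated groups, at 924 to 942 CPM and 117 to 130.2 CPM.

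The genotype mattered both before and after R837, and most in the libraries labelled TBK1-cKD ∆IKKe. Each genotype comparison below shares its TBK1-WT ∆control libraries with the others of the same treatment. After R837, 8 members were higher and none lower in TBK1-cKD ∆IKKe than in TBK1-WT ∆control (16.7% and 15.5% of all genes). The counts were 4 higher and none lower in TBK1-cKD ∆control (4.48% and 4.41%), and 2 higher and none lower in TBK1-WT ∆IKKe (1.14% and 0.708%). Both of these rest on the fit of all groups, since with only the 2 groups compared they were 2 members and 40 of all genes (from 4 and 1305) in TBK1-cKD ∆control, and 0 members and 19 genes (from 2 and 272) in TBK1-WT ∆IKKe. Without replicate 1 of treated TBK1-WT ∆control the gene counts were 774 and 167, and without replicate 1 or 2 of treated TBK1-WT ∆IKKe the second was 125 or 143, each with 1 member. In untreated cells 5 members were higher and 1 was lower in TBK1-cKD ∆IKKe than in TBK1-WT ∆control, where 8.52% of all genes tested were higher and 5.1% lower. In untreated TBK1-cKD ∆control 4 members were higher and none was lower than in TBK1-WT ∆control (2.4% and 2.65% of all genes), and 2 without replicate 1 of untreated TBK1-WT ∆control or replicate 2 or 3 of untreated TBK1-cKD ∆control. In untreated TBK1-WT ∆IKKe no member passed the test, and neither did any other gene (0% of 14681), with 422 genes below 0.05 before adjustment and 1 gene called by DESeq2. The members' median log2 difference from TBK1-WT ∆control after R837 was 0.81 in TBK1-cKD ∆IKKe, 0.19 in TBK1-cKD ∆control and 0.21 in TBK1-WT ∆IKKe, and that of all genes lay between -0.03 and -0.01.

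**Figure D2:**
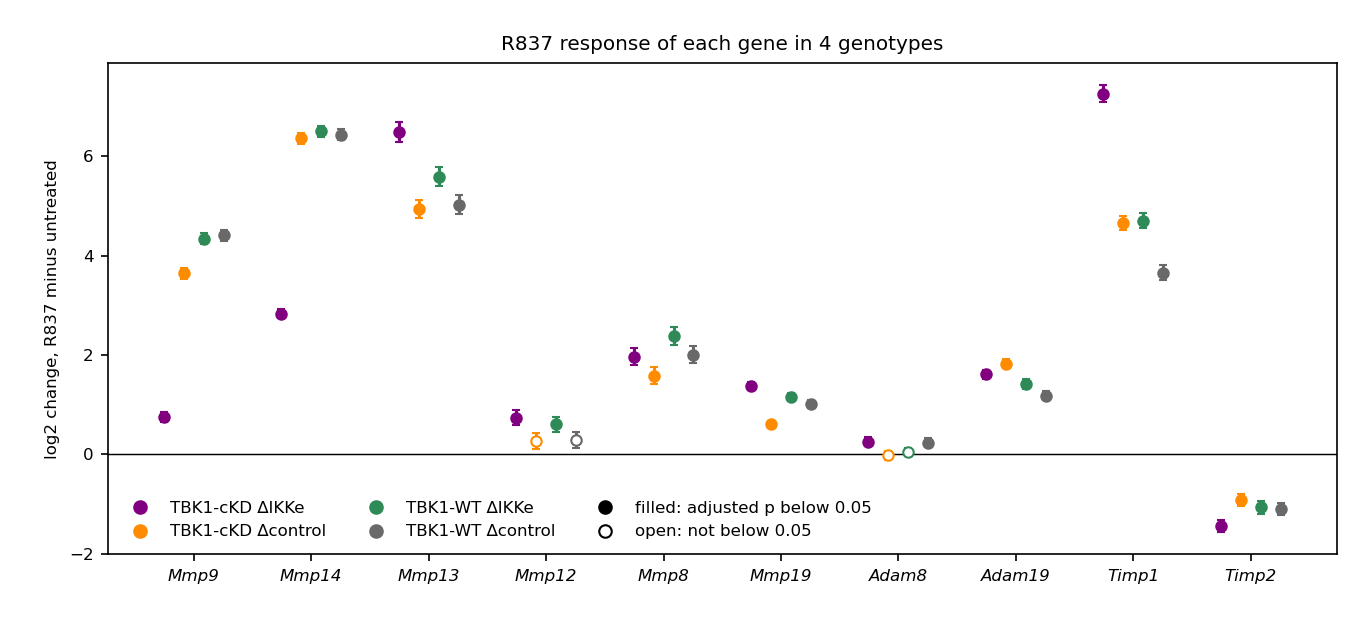
Log2 change with R837 against untreated for each gene in each genotype, with error bars of 1 SE, filled points where the adjusted p is below 0.05 and open points where it is not. Mmp9 and Mmp14 in TBK1-cKD ∆IKKe (0.75 and 2.83) lie far below the other genotypes, and Timp1 in TBK1-cKD ∆IKKe (7.26) lies above them.

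Mmp9 encodes gelatinase B, which cuts denatured collagen and basement membrane collagen. With R837 the libraries labelled TBK1-cKD ∆IKKe reached 1679.5, 1711 and 1314 CPM, TBK1-cKD ∆control 1089, 1183 and 1171 CPM and TBK1-WT ∆IKKe 767, 699.7 and 683 CPM, against 625, 667 and 672 CPM in TBK1-WT ∆control. The 2 TBK1-cKD groups were above every TBK1-WT library and did not overlap with each other. In untreated libraries Mmp9 RNA was at 932, 924 and 942 CPM in those labelled TBK1-cKD ∆IKKe, 84.0, 101 and 90.9 CPM in TBK1-cKD ∆control and 31.1, 37.1 and 38.3 CPM in TBK1-WT ∆IKKe, against 27.6, 32.0 and 33.1 CPM in TBK1-WT ∆control. Neither TBK1-cKD group overlapped with another untreated group, whereas the TBK1-WT groups overlapped with each other. The untreated log2 difference from TBK1-WT ∆control was 4.92 ± 0.11 (SE) in TBK1-cKD ∆IKKe, a 30.2-fold higher level (edgeR adjusted p = 5.78e-18), and 1.57 ± 0.10 in TBK1-cKD ∆control, 2.98-fold (edgeR adjusted p = 3.8e-09). Untreated TBK1-cKD ∆IKKe libraries thus held more Mmp9 RNA than any R837-treated TBK1-WT library, of either ∆control or ∆IKKe. R837 raised Mmp9 by only 0.75 ± 0.10 on the log2 scale in TBK1-cKD ∆IKKe (1.68-fold, edgeR adjusted p = 5.86e-07), with no overlap between treated and untreated libraries. The log2 responses were 3.64 in TBK1-cKD ∆control, 4.34 in TBK1-WT ∆IKKe and 4.41 ± 0.11 in TBK1-WT ∆control (21.2-fold, edgeR adjusted p = 2.61e-18). The response differed from that of TBK1-WT ∆control by -3.66 ± 0.14 in TBK1-cKD ∆IKKe (edgeR adjusted p = 1.16e-13, a test that 17.3% of all genes passed) and by -0.76 ± 0.14 in TBK1-cKD ∆control (edgeR adjusted p = 0.00878, passed by 0.879% of all genes). After R837 Mmp9 remained 2.40-fold higher in TBK1-cKD ∆IKKe and 1.75-fold higher in TBK1-cKD ∆control than in TBK1-WT ∆control (edgeR adjusted p = 1.41e-09 and 1.71e-05), while TBK1-WT ∆IKKe differed by 0.13 ± 0.09 (edgeR adjusted p = 0.516).

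Osteoclasts and neutrophils are other marrow-derived cells that make MMP9. The 7 osteoclast markers, of which Calcr was at 0 in all 4 untreated groups, summed to 655 to 671 CPM in untreated TBK1-cKD ∆IKKe and to 678 to 697 CPM in untreated TBK1-cKD ∆control, against 498 to 538 CPM in untreated TBK1-WT ∆control. The 10 neutrophil markers other than Mmp8 summed to 0.471 to 0.542 CPM in untreated TBK1-cKD ∆IKKe and 0.371 to 0.836 CPM in untreated TBK1-cKD ∆control, against 3.30 to 4.69 CPM in untreated TBK1-WT ∆control, with Ly6g, Ctsg and Retnlg at 0 in both TBK1-cKD groups. After R837 the osteoclast markers summed to 322 to 388 CPM in TBK1-cKD ∆IKKe and 282 to 304 CPM in TBK1-cKD ∆control. They summed to 239 to 252 CPM in TBK1-WT ∆IKKe, against 193 to 228 CPM in TBK1-WT ∆control. The treated neutrophil sums were 2.74 to 3.12 CPM in TBK1-cKD ∆IKKe and 1.10 to 4.33 CPM in TBK1-cKD ∆control, against 2.25 to 2.98 CPM in TBK1-WT ∆control. The part of either cell type in the Mmp9 differences was not tested.

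Mmp14 encodes the membrane-anchored collagenase that activates other proenzymes at the cell surface, among them those of MMP2 and MMP13. With R837, Mmp14 was at 814, 859 and 918 CPM in the libraries labelled TBK1-cKD ∆IKKe, 427, 418 and 415 CPM in TBK1-cKD ∆control and 588, 549.8 and 564 CPM in TBK1-WT ∆IKKe, against 484, 456 and 469 CPM in TBK1-WT ∆control. None of the 4 treated groups overlapped with another. TBK1-cKD ∆IKKe was 1.84-fold above TBK1-WT ∆control (log2 0.88 ± 0.08, edgeR adjusted p = 3.35e-08), while the lower level of TBK1-cKD ∆control (log2 -0.16 ± 0.08, edgeR adjusted p = 0.216) and the higher level of TBK1-WT ∆IKKe (log2 0.27 ± 0.08, edgeR adjusted p = 0.115) did not pass the test. The TBK1-WT ∆IKKe difference did pass with DESeq2 (0.27, adjusted p = 0.000755), with nuclear RNA level in the model (0.31, edgeR adjusted p = 0.00307) and without the 2 treated libraries of high level (0.29, edgeR adjusted p = 0.0145). In untreated libraries Mmp14 RNA was at 130.2, 117 and 117 CPM in those labelled TBK1-cKD ∆IKKe, 4.87, 6.03 and 4.42 CPM in TBK1-cKD ∆control and 6.00, 6.63 and 6.22 CPM in TBK1-WT ∆IKKe, against 4.92, 5.06 and 6.40 CPM in TBK1-WT ∆control. The TBK1-cKD ∆IKKe libraries stood apart from the 9 other untreated libraries, which overlapped with one another. Their difference from untreated TBK1-WT ∆control was 4.48 ± 0.10 on the log2 scale, 22.4-fold (edgeR adjusted p = 5.78e-18). Untreated TBK1-cKD ∆control differed from TBK1-WT ∆control by -0.09 ± 0.10 (edgeR adjusted p = 0.864). R837 raised Mmp14 7.12-fold in TBK1-cKD ∆IKKe, 82.4-fold in TBK1-cKD ∆control, 90.6-fold in TBK1-WT ∆IKKe and 86.6-fold in TBK1-WT ∆control. On the log2 scale the response of TBK1-cKD ∆IKKe differed from that of TBK1-WT ∆control by -3.60 ± 0.13 (edgeR adjusted p = 3.43e-14).

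The design crosses TBK1 with IKKe, and 3 further comparisons on that crossing were added after the data were seen. The first set untreated TBK1-cKD ∆IKKe against untreated TBK1-cKD ∆control, in which 11.4% of all genes were called. Mmp14 was 23.8-fold higher in TBK1-cKD ∆IKKe (log2 4.57 ± 0.10, edgeR adjusted p = 5.45e-18) and Mmp9 10.2-fold higher (log2 3.34 ± 0.10, edgeR adjusted p = 1.89e-15). Adam19 was also higher (0.37, edgeR adjusted p = 0.00511), and Mmp12, Adam8 and Timp1 were lower (log2 -0.65, -0.29 and -0.77). The Mmp12 call was lost without replicate 1 of untreated TBK1-cKD ∆IKKe (edgeR adjusted p = 0.0538), and the Adam8 call without any 1 of the 6 libraries but replicate 1 of untreated TBK1-cKD ∆control (edgeR adjusted p of 0.0587 to 0.187). The interaction of both genotypes, that is the log2 effect of ∆IKKe in TBK1-cKD minus its effect in TBK1-WT, was tested in untreated cells and after R837. In untreated cells it was 4.36 ± 0.14 for Mmp14, 3.14 ± 0.14 for Mmp9 and 0.56 ± 0.13 for Adam19 (edgeR adjusted p = 7.36e-15, 2.94e-12 and 0.00926), the 3 members called, against 4.69% of all genes. That of Mmp12 (-0.66, edgeR adjusted p = 0.116) and Adam8 (-0.42, edgeR adjusted p = 0.0527) passed with no count filter, when only the groups compared were fitted, with nuclear RNA level in the model, among libraries of high level and without the 2 treated libraries of high level. After R837 the interaction was called for Timp1 (1.03 ± 0.17), Mmp14 (0.77 ± 0.12), Mmp19 (0.71 ± 0.11) and Mmp13 (0.69 ± 0.22), with edgeR adjusted p of 0.000237, 0.000101, 0.000107 and 0.0303, against 22.2% of all genes. The Mmp13 interaction did not pass when only the groups compared were fitted (edgeR adjusted p = 0.0585). It also did not pass without replicate 1 or 2 of treated TBK1-cKD ∆control, replicate 2 of treated TBK1-cKD ∆IKKe, replicate 3 of treated TBK1-WT ∆IKKe or replicate 2 or 3 of treated TBK1-WT ∆control (edgeR adjusted p of 0.0503 to 0.0775).

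**Figure D3:**
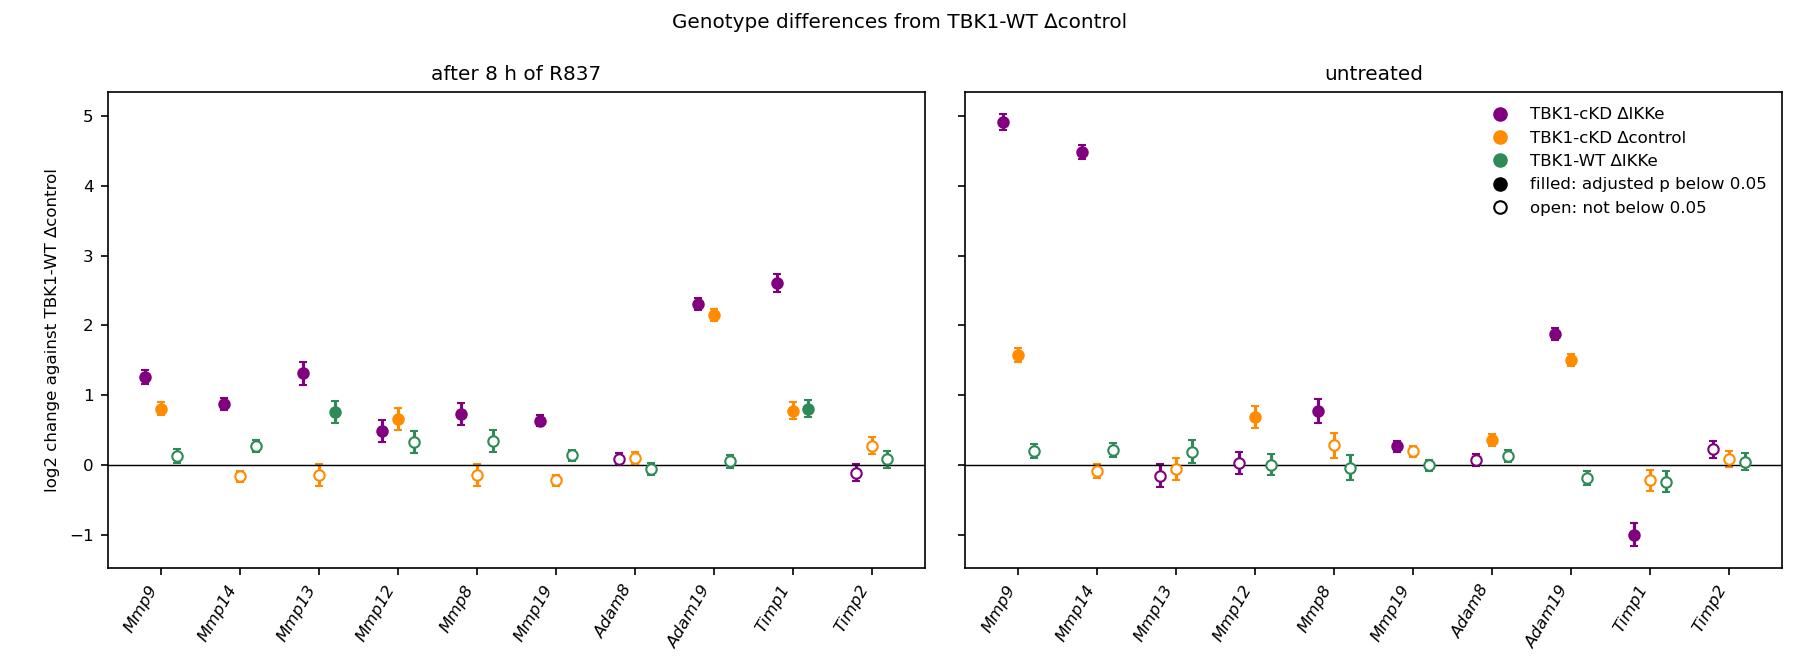
Log2 difference of each genotype from TBK1-WT ∆control for each gene, after R837 and untreated, with error bars of 1 SE, filled points where the adjusted p is below 0.05 and open points where it is not. In untreated cells Mmp9 and Mmp14 of TBK1-cKD ∆IKKe stand at 4.92 and 4.48, and Adam19 is higher in both TBK1-cKD groups under either treatment.

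Mmp13 encodes collagenase 3, which cuts fibrillar collagen. After R837 it was at 3996, 4245 and 3609.9 CPM in the libraries labelled TBK1-cKD ∆IKKe, 1393, 1440.4 and 1499.6 CPM in TBK1-cKD ∆control and 2823, 2879 and 2365 CPM in TBK1-WT ∆IKKe, against 1214, 1869 and 1692 CPM in TBK1-WT ∆control. Both ∆IKKe groups were above every ∆control library, TBK1-cKD ∆IKKe was above TBK1-WT ∆IKKe, and TBK1-cKD ∆control lay within the range of TBK1-WT ∆control. Mmp13 RNA was low in all untreated groups, with 41.1, 45.8 and 45.0 CPM in TBK1-cKD ∆IKKe, 40.9, 47.5 and 52.8 CPM in TBK1-cKD ∆control and 42.6, 56.2 and 68.5 CPM in TBK1-WT ∆IKKe, against 40.2, 54.9 and 51.3 CPM in TBK1-WT ∆control. These untreated groups overlapped, and no untreated difference passed the test. R837 raised Mmp13 89.9-fold in TBK1-cKD ∆IKKe (log2 6.49 ± 0.20), 30.8-fold in TBK1-cKD ∆control, 48.3-fold in TBK1-WT ∆IKKe and 32.6-fold in TBK1-WT ∆control (log2 5.03 ± 0.19), with edgeR adjusted p of at most 1.89e-15. The R837-treated level in TBK1-cKD ∆IKKe was 2.48-fold that of TBK1-WT ∆control (log2 1.31 ± 0.16, edgeR adjusted p = 1.03e-06) and 2.74-fold that of TBK1-cKD ∆control (log2 1.45 ± 0.16, edgeR adjusted p = 3.89e-07). In TBK1-WT ∆IKKe it was 1.69-fold that of TBK1-WT ∆control (log2 0.76 ± 0.16, edgeR adjusted p = 0.0106). That last call was lost when only those 2 groups were fitted (edgeR adjusted p = 0.222) and when replicate 1 of R837-treated TBK1-WT ∆control was left out (log2 0.59, 0.0696). It was also lost without replicate 1 or 2 of R837-treated TBK1-WT ∆IKKe (edgeR adjusted p = 0.0611 and 0.0624). The R837 response of TBK1-cKD ∆IKKe exceeded that of TBK1-WT ∆control by 1.46 ± 0.22 (edgeR adjusted p = 5.7e-05).

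Mmp8 encodes the collagenase best known from neutrophil granules. In R837-treated libraries it was at 34.8, 40.0 and 55.4 CPM in TBK1-cKD ∆IKKe, 25.7, 20.9 and 24.1 CPM in TBK1-cKD ∆control and 37.4, 33.2 and 28.6 CPM in TBK1-WT ∆IKKe, against 30.7, 23.6 and 23.96 CPM in TBK1-WT ∆control. Replicate 3 of TBK1-cKD ∆IKKe, 1 of the 2 treated libraries of high nuclear RNA level, was the highest of all 24 libraries. In untreated libraries it was at 10.5, 11.8 and 11.1 CPM in TBK1-cKD ∆IKKe, 6.25, 8.94 and 8.61 CPM in TBK1-cKD ∆control and 5.69, 5.80 and 7.45 CPM in TBK1-WT ∆IKKe, against 6.65, 7.02 and 5.70 CPM in TBK1-WT ∆control. R837 raised Mmp8 3.92-fold in TBK1-cKD ∆IKKe, 3.00-fold in TBK1-cKD ∆control, 5.23-fold in TBK1-WT ∆IKKe and 4.03-fold in TBK1-WT ∆control (log2 2.01 ± 0.17, edgeR adjusted p = 1.86e-09), and no treated library overlapped with an untreated one. TBK1-cKD ∆IKKe was above TBK1-WT ∆control after R837 (log2 0.73 ± 0.16, edgeR adjusted p = 0.00106, or 0.0609 when only those 2 groups were fitted) and in untreated cells (0.78 ± 0.17, edgeR adjusted p = 0.00339). The sum of the other neutrophil markers was 0.371 to 4.69 CPM over all libraries, with Ly6g at 0 in 6 of the 8 groups, Retnlg at 0 in 6 of the 8 and Elane at 0 in 3 of the 4 treated groups. In untreated cells that sum was lower in TBK1-cKD ∆IKKe (0.471 to 0.542 CPM) than in TBK1-WT ∆control (3.30 to 4.69 CPM). After R837 it was not lower, with 2.74 to 3.12 CPM in TBK1-cKD ∆IKKe, against 2.25 to 2.98 CPM in TBK1-WT ∆control. The part of neutrophils in the Mmp8 differences was not tested.

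Mmp12, the macrophage elastase, ranked 2 or 3 among the 10 members in every group by RPKM, and its group means differed by less than a factor of 2. In R837-treated libraries it was at 2989, 3043 and 2154 CPM in TBK1-cKD ∆IKKe, 3119, 3076 and 3042 CPM in TBK1-cKD ∆control and 2517, 2743 and 2055 CPM in TBK1-WT ∆IKKe, against 1571, 2246 and 2018 CPM in TBK1-WT ∆control. In untreated libraries it was at 1458, 1716 and 1717 CPM in TBK1-cKD ∆IKKe, 2166, 2809 and 2705 CPM in TBK1-cKD ∆control and 1274, 1689 and 1839.9 CPM in TBK1-WT ∆IKKe, against 1440.1, 1779.6 and 1561 CPM in TBK1-WT ∆control. Among untreated libraries those of TBK1-cKD ∆control were above all others, and among treated libraries they were above both TBK1-WT groups and overlapped with TBK1-cKD ∆IKKe. R837 raised Mmp12 in TBK1-cKD ∆IKKe (log2 0.74 ± 0.16, edgeR adjusted p = 0.000297) and in TBK1-WT ∆IKKe (0.61 ± 0.16, edgeR adjusted p = 0.00186). It did not pass in TBK1-cKD ∆control (0.27 ± 0.16, edgeR adjusted p = 0.135) or TBK1-WT ∆control (0.29 ± 0.16, edgeR adjusted p = 0.115). When nuclear RNA level was included in the model the response was 0.42 in TBK1-cKD ∆IKKe, -0.20 in TBK1-cKD ∆control, 0.14 in TBK1-WT ∆IKKe and -0.04 in TBK1-WT ∆control, so that the sign turned in both ∆control genotypes and TBK1-WT ∆IKKe was no longer called (edgeR adjusted p = 0.335, 0.492 and 0.849 in the last 3). No treated library of TBK1-cKD ∆control or TBK1-WT ∆IKKe was of the high level. The values of these genotypes in that model therefore rest on the level effect seen in the other genotypes. In TBK1-cKD ∆control the response passed when only its 2 groups were fitted (0.26, edgeR adjusted p = 0.0234) and without the 2 treated libraries of high level (0.31, edgeR adjusted p = 0.022). In TBK1-WT ∆control it passed without replicate 1 of treated TBK1-WT ∆control (0.47, edgeR adjusted p = 0.0139) and without both of those libraries (0.47, edgeR adjusted p = 0.00266), and it was -0.01 among libraries of high level. In TBK1-cKD ∆control Mmp12 was above TBK1-WT ∆control by 0.66 ± 0.16 after R837 (edgeR adjusted p = 0.0103) and by 0.68 ± 0.16 in untreated cells (edgeR adjusted p = 0.0106). The first was lost without replicate 1 of treated TBK1-WT ∆control (edgeR adjusted p = 0.0789) and when only those 2 groups were fitted (0.104), and the second without replicate 1 of untreated TBK1-WT ∆control or replicate 2 or 3 of untreated TBK1-cKD ∆control (edgeR adjusted p = 0.0785, 0.0739 and 0.0544). The higher treated level of TBK1-cKD ∆IKKe (log2 0.49 ± 0.16, edgeR adjusted p = 0.0198) came with overlapping groups and was lost without replicate 1 of TBK1-WT ∆control (0.35, 0.104) and without replicate 1 or 2 of TBK1-cKD ∆IKKe (0.0812 and 0.0924), when only those 2 groups were fitted (0.149) and among libraries of high nuclear RNA level (0.089).

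Mmp19, a secreted metalloproteinase that cuts basement membrane proteins, was raised by R837 in each genotype. Treated libraries held 104, 108 and 121 CPM in TBK1-cKD ∆IKKe, 61.8, 52.0 and 69.9 CPM in TBK1-cKD ∆control and 80.5, 74.6 and 80.2 CPM in TBK1-WT ∆IKKe, against 73.1, 71.5 and 69.2 CPM in TBK1-WT ∆control. Untreated libraries held 42.6, 43.1 and 41.5 CPM in TBK1-cKD ∆IKKe, 39.1, 40.3 and 41.7 CPM in TBK1-cKD ∆control and 34.2, 34.2 and 36.6 CPM in TBK1-WT ∆IKKe, against 35.0, 35.5 and 35.0 CPM in TBK1-WT ∆control. Treated TBK1-cKD ∆IKKe was above all other treated libraries, and treated TBK1-cKD ∆control, the lowest treated group, overlapped with TBK1-WT ∆control. The log2 response was 1.38 ± 0.08 in TBK1-cKD ∆IKKe, 0.60 ± 0.08 in TBK1-cKD ∆control, 1.16 ± 0.08 in TBK1-WT ∆IKKe and 1.02 ± 0.08 in TBK1-WT ∆control, with edgeR adjusted p of at most 9.62e-07. After R837 Mmp19 was higher in TBK1-cKD ∆IKKe than in TBK1-WT ∆control (0.63 ± 0.08, edgeR adjusted p = 1.23e-06) and than in TBK1-cKD ∆control (0.85 ± 0.08, edgeR adjusted p = 3.01e-08). In untreated cells the difference between TBK1-cKD ∆IKKe and TBK1-WT ∆control was small (0.27 ± 0.08, edgeR adjusted p = 0.0227) and was lost without any 1 of the 6 libraries but replicate 3 of TBK1-cKD ∆IKKe (edgeR adjusted p of 0.0611 to 0.076) and with no count filter (0.0712).

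Adam8 sheds adhesion molecules from myeloid cells. Its level varied least of all members across groups, with 2409 ± 213 CPM in treated TBK1-cKD ∆IKKe, 2428 ± 186 CPM in treated TBK1-cKD ∆control and 2184 ± 52.6 CPM in treated TBK1-WT ∆IKKe, against 2267 ± 35.2 CPM in treated TBK1-WT ∆control (SD, n = 3 each). Untreated means were 2017 ± 59.5 CPM in TBK1-cKD ∆IKKe, 2463 ± 262 CPM in TBK1-cKD ∆control and 2112 ± 217 CPM in TBK1-WT ∆IKKe, against 1923 ± 143 CPM in TBK1-WT ∆control. Small rises with R837 were called in TBK1-cKD ∆IKKe (log2 0.26 ± 0.09, edgeR adjusted p = 0.0137) and in TBK1-WT ∆control (0.24 ± 0.09, edgeR adjusted p = 0.0219). The first was lost without replicate 3 of treated TBK1-cKD ∆IKKe (0.18, edgeR adjusted p = 0.0754) and the second without replicate 1 of untreated TBK1-WT ∆control (0.18, edgeR adjusted p = 0.116) or when only those 2 groups were fitted (0.0522). The higher untreated level in TBK1-cKD ∆control than in TBK1-WT ∆control (log2 0.36 ± 0.09, edgeR adjusted p = 0.0166) was lost without replicate 1 of untreated TBK1-WT ∆control (0.128) or replicate 2 or 3 of untreated TBK1-cKD ∆control (0.122 and 0.0936).

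Adam19, whose product releases neuregulins and takes part in heart development, was higher in both TBK1-cKD groups under either treatment, as Mmp9 was. Treated libraries held 71.5, 77.0 and 79.6 CPM in TBK1-cKD ∆IKKe, 72.9, 68.9 and 63.4 CPM in TBK1-cKD ∆control and 16.5, 15.8 and 15.5 CPM in TBK1-WT ∆IKKe, against 17.1, 15.0 and 13.9 CPM in TBK1-WT ∆control. The TBK1-cKD groups overlapped with each other, as did the TBK1-WT groups, and every treated TBK1-cKD library was far above every TBK1-WT library. Untreated libraries held 25.1, 25.9 and 23.7 CPM in TBK1-cKD ∆IKKe, 18.5, 18.4 and 21.0 CPM in TBK1-cKD ∆control and 6.74, 5.36 and 5.65 CPM in TBK1-WT ∆IKKe, against 6.90, 6.88 and 6.56 CPM in TBK1-WT ∆control. Untreated TBK1-cKD libraries were therefore also above all treated TBK1-WT libraries, and those of TBK1-cKD ∆IKKe were above those of TBK1-cKD ∆control. The log2 difference from TBK1-WT ∆control was 2.31 ± 0.09 in TBK1-cKD ∆IKKe (4.95-fold) and 2.15 ± 0.09 in TBK1-cKD ∆control (4.45-fold) after R837, with edgeR adjusted p of 5.16e-14 and 2.71e-12. In untreated cells it was 1.88 ± 0.09 (3.67-fold) and 1.51 ± 0.09 (2.84-fold), with edgeR adjusted p of 2.04e-12 and 2.21e-09. ∆IKKe in TBK1-WT cells differed by 0.05 ± 0.09 after R837, and the ∆IKKe effect among treated TBK1-cKD libraries was 0.15 ± 0.08 (edgeR adjusted p = 0.16). Among untreated TBK1-cKD libraries the ∆IKKe effect was called (0.37, edgeR adjusted p = 0.00511). R837 raised Adam19 3.05-fold in TBK1-cKD ∆IKKe, 3.55-fold in TBK1-cKD ∆control, 2.67-fold in TBK1-WT ∆IKKe and 2.26-fold in TBK1-WT ∆control. The response exceeded that of TBK1-WT ∆control in TBK1-cKD ∆control (0.65 ± 0.12, edgeR adjusted p = 0.0136) and TBK1-cKD ∆IKKe (0.43 ± 0.12, edgeR adjusted p = 0.0176). The first was lost when only those groups were fitted (edgeR adjusted p = 0.0952) and without replicate 2 of untreated TBK1-cKD ∆control (0.0563). The second was lost with no count filter (0.0776), among libraries of high nuclear RNA level (0.0518) and without replicate 3 of untreated TBK1-cKD ∆IKKe (0.0527) or of treated TBK1-WT ∆control (0.0574).

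Timp1 encodes a secreted inhibitor of most matrix metalloproteinases and was the member with the largest R837 response in TBK1-cKD ∆IKKe. Treated libraries held 257, 277 and 333 CPM in TBK1-cKD ∆IKKe, 82.6, 83.0 and 78.3 CPM in TBK1-cKD ∆control and 82.8, 84.7 and 81.2 CPM in TBK1-WT ∆IKKe, against 38.8, 53.4 and 50.5 CPM in TBK1-WT ∆control. TBK1-cKD ∆IKKe was above every other treated library, TBK1-cKD ∆control and TBK1-WT ∆IKKe overlapped with each other, and TBK1-WT ∆control was below all of them. In untreated libraries TBK1-cKD ∆IKKe was instead the lowest group, with 2.28, 1.52 and 1.76 CPM in TBK1-cKD ∆IKKe, 2.75, 3.63 and 3.38 CPM in TBK1-cKD ∆control and 3.25, 2.70 and 3.48 CPM in TBK1-WT ∆IKKe, against 3.32, 4.07 and 3.89 CPM in TBK1-WT ∆control. Untreated TBK1-cKD ∆IKKe differed from TBK1-WT ∆control by -0.996 ± 0.16 (edgeR adjusted p = 0.000171), and the other untreated differences did not pass. After R837 the level was 6.08-fold higher in TBK1-cKD ∆IKKe than in TBK1-WT ∆control (log2 2.60 ± 0.13, edgeR adjusted p = 1.17e-12), 1.71-fold higher in TBK1-cKD ∆control (0.78 ± 0.12, edgeR adjusted p = 0.000289) and 1.75-fold higher in TBK1-WT ∆IKKe (0.80 ± 0.12, edgeR adjusted p = 0.000584). When only the groups compared were fitted, the calls of TBK1-cKD ∆control and TBK1-WT ∆IKKe were lost (edgeR adjusted p = 0.0671 and 0.0709). R837 raised Timp1 154-fold in TBK1-cKD ∆IKKe (log2 7.26 ± 0.17), 25.3-fold in TBK1-cKD ∆control, 26.1-fold in TBK1-WT ∆IKKe and 12.7-fold in TBK1-WT ∆control (log2 3.66 ± 0.14), with edgeR adjusted p of at most 3.32e-15. The response exceeded that of TBK1-WT ∆control by 3.60 ± 0.20 in TBK1-cKD ∆IKKe, 0.996 ± 0.20 in TBK1-cKD ∆control and 1.04 ± 0.19 in TBK1-WT ∆IKKe (edgeR adjusted p = 6.36e-11, 0.0158 and 0.0178). In the last of these comparisons 0.245% of all genes passed, and its Timp1 call was lost when only those groups were fitted (edgeR adjusted p = 0.0546). It was also lost without replicate 1 or 2 of treated or of untreated TBK1-WT ∆IKKe, or replicate 2 or 3 of untreated TBK1-WT ∆control (edgeR adjusted p of 0.0517 to 0.091). The call of TBK1-cKD ∆control was lost when only those groups were fitted (edgeR adjusted p = 0.0767) and without replicate 1 of untreated TBK1-cKD ∆control (0.0594) or replicate 2 of untreated TBK1-WT ∆control (0.0599).

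Timp2, the inhibitor that also docks the MMP2 proenzyme on MMP14, was the member that fell. Treated libraries held 338, 306 and 219 CPM in TBK1-cKD ∆IKKe, 380.3, 379.9 and 367 CPM in TBK1-cKD ∆control, 322, 343 and 320.5 CPM in TBK1-WT ∆IKKe and 239, 339 and 354 CPM in TBK1-WT ∆control. Untreated libraries held 795, 777 and 764 CPM in TBK1-cKD ∆IKKe, 704, 684 and 735 CPM in TBK1-cKD ∆control, 657, 693 and 713 CPM in TBK1-WT ∆IKKe and 674, 660.3 and 665 CPM in TBK1-WT ∆control. Every treated library was below every untreated one. The lowest treated values were those of replicate 3 of TBK1-cKD ∆IKKe and replicate 1 of TBK1-WT ∆control, the 2 treated libraries of high nuclear RNA level. The log2 response was -1.44 ± 0.12 in TBK1-cKD ∆IKKe, -0.91 ± 0.12 in TBK1-cKD ∆control, -1.07 ± 0.12 in TBK1-WT ∆IKKe and -1.10 ± 0.12 in TBK1-WT ∆control, with edgeR adjusted p of at most 1.52e-06. Without those 2 libraries it was -1.21 in TBK1-cKD ∆IKKe and -0.89 in TBK1-WT ∆control, and when nuclear RNA level was included in the model it was -1.46 in TBK1-cKD ∆control and -1.61 in TBK1-WT ∆IKKe. Those last values rest on the level effect seen in the other genotypes, since all treated libraries of TBK1-cKD ∆control and TBK1-WT ∆IKKe were of the low level. No difference in Timp2 between a genotype and TBK1-WT ∆control passed the test under either treatment. The untreated difference of TBK1-cKD ∆IKKe (0.22, edgeR adjusted p = 0.296) did pass when only those 2 groups were fitted, with nuclear RNA level in the model, among libraries of high level and without the 2 treated libraries of high level (edgeR adjusted p of 1.14e-05 to 0.000271), and its treated difference (-0.11) with nuclear RNA level in the model (edgeR adjusted p = 0.0308). The lower treated level in TBK1-cKD ∆IKKe than in TBK1-cKD ∆control (-0.39 ± 0.12, edgeR adjusted p = 0.0184) was -0.22 without replicate 3 of treated TBK1-cKD ∆IKKe (0.116) and did not pass when only those 2 groups were fitted (0.125).

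Levels of different genes were compared as deposited RPKM, that is counts per kilobase of gene and per M reads of the library. In R837-treated TBK1-cKD ∆IKKe the Timp1 to Timp2 ratio of RPKM was 3.18, 3.79 and 6.34. It was 0.908, 0.912 and 0.890 in treated TBK1-cKD ∆control and 1.07, 1.03 and 1.06 in treated TBK1-WT ∆IKKe, against 0.679, 0.658 and 0.596 in treated TBK1-WT ∆control. The ratio averaged 0.00994 in untreated TBK1-cKD ∆IKKe, 0.0192 in untreated TBK1-cKD ∆control and 0.0191 in untreated TBK1-WT ∆IKKe, against 0.0236 in untreated TBK1-WT ∆control. Timp2 was thus the more abundant of the pair in all untreated libraries and in treated TBK1-WT ∆control, and Timp1 in treated TBK1-cKD ∆IKKe. In treated TBK1-WT ∆IKKe (ratio of 1.03 to 1.07) and treated TBK1-cKD ∆control (0.890 to 0.912) the pair was close to even. Which of the pair was ahead there depends on the gene widths used. In treated TBK1-cKD ∆IKKe the most abundant member was Mmp13, at 1103 ± 68.0 RPKM (SD, n = 3), ahead of Adam8 at 578 ± 65.0, Mmp12 at 510.4 ± 83.0, Mmp9 at 368 ± 44.1, Timp1 at 244 ± 38.9 and Mmp14 at 154 ± 12.7 RPKM. In treated TBK1-WT ∆control it was Adam8 at 625 ± 21.3 RPKM, ahead of Mmp13 at 510.4 ± 102, Mmp12 at 419 ± 69.0, Mmp9 at 177 ± 3.92 and Mmp14 at 96.5 ± 4.35 RPKM. Untreated TBK1-cKD ∆IKKe had Adam8 at 618 ± 19.4, Mmp12 at 391 ± 37.6 and Mmp9 at 280.4 ± 2.22 RPKM as its 3 most abundant members, against Adam8 at 622 ± 44.8, Mmp12 at 403 ± 41.9 and Timp2 at 181 ± 2.61 RPKM in untreated TBK1-WT ∆control. Adam19 and Mmp8 were at the low end in treated cells, at 8.90 ± 0.656 and 13.4 ± 3.63 RPKM in TBK1-cKD ∆IKKe, against 2.07 ± 0.259 and 9.25 ± 1.59 RPKM in TBK1-WT ∆control.

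**Figure D4:**
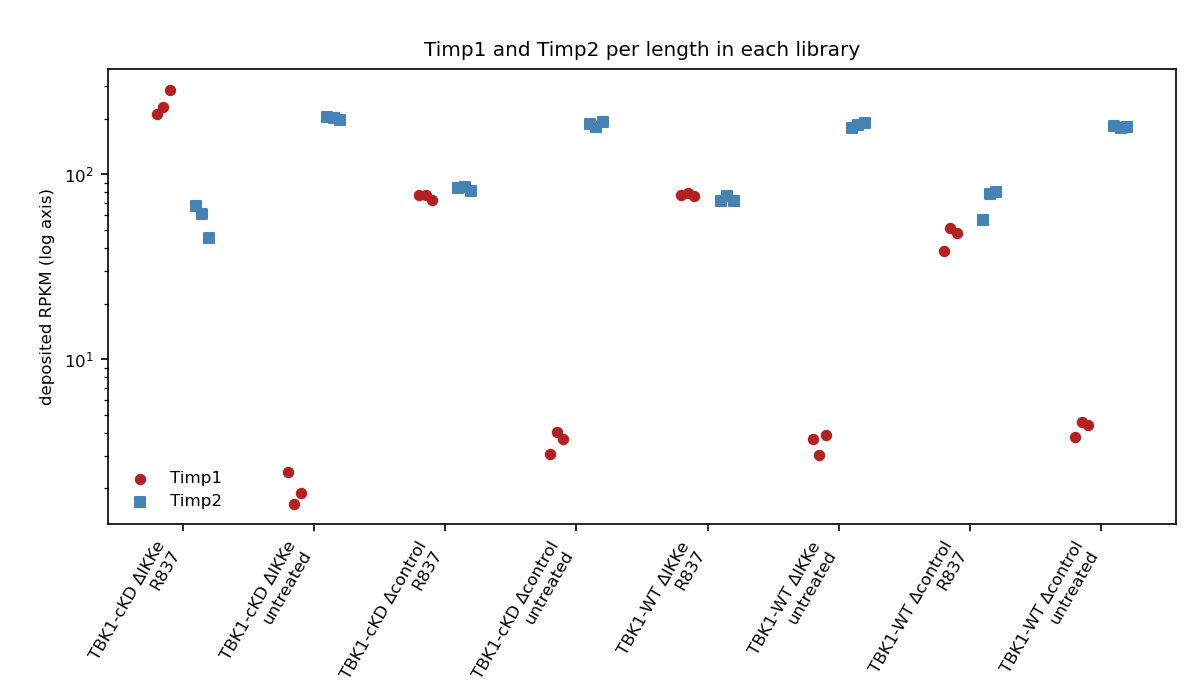
Deposited RPKM of Timp1 and Timp2 in every library (log axis), R837-treated groups left of untreated groups. Timp1 lies above Timp2 in the 3 treated TBK1-cKD ∆IKKe libraries, only slightly above it in the 3 treated TBK1-WT ∆IKKe libraries and below it in every other library.

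The R837 responses were recomputed among the libraries of high nuclear RNA level, where 1 treated library of TBK1-cKD ∆IKKe or TBK1-WT ∆control stands against 3 untreated ones and is assumed to vary like the other groups. Within that level the log2 response in TBK1-cKD ∆IKKe was 0.51 for Mmp9, 2.94 for Mmp14, 6.38 for Mmp13 and 7.48 for Timp1, and in TBK1-WT ∆control 4.35 for Mmp9, 6.50 for Mmp14, 4.65 for Mmp13 and 3.38 for Timp1. The member count was 10 called in TBK1-cKD ∆IKKe and 9 in TBK1-WT ∆control. The same single libraries gave a difference between treated TBK1-cKD ∆IKKe and treated TBK1-WT ∆control of 3.11 for Timp1, 2.23 for Adam19, 1.59 for Mmp13, 1.09 for Mmp9 and 0.94 for Mmp14, and 7 members were called. Without those 2 libraries, so that all treated libraries were of the low level, 8 members were called in that comparison, as in the full set. For TBK1-cKD ∆control and TBK1-WT ∆IKKe no treated library was of the high level, and in their R837 responses the level and the treatment cannot be told apart.

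Treated TBK1-cKD ∆IKKe was also set against the single-gene groups. Against treated TBK1-cKD ∆control 6 members were higher and 1, Timp2, was lower (18.3% and 16.2% of all genes), with Timp1 3.55-fold, Mmp13 2.74-fold and Mmp14 2.06-fold higher and Mmp9 higher by 0.45 ± 0.09 on the log2 scale. Against treated TBK1-WT ∆IKKe 6 were higher and none lower (16.5% and 14.2% of all genes), with log2 differences of 2.25 ± 0.09 for Adam19, 1.80 ± 0.12 for Timp1, 1.13 ± 0.10 for Mmp9, 0.61 ± 0.08 for Mmp14, 0.55 ± 0.16 for Mmp13 and 0.50 ± 0.08 for Mmp19. The Mmp13 call in the second comparison (edgeR adjusted p = 0.00955) was lost without replicate 3 of treated TBK1-WT ∆IKKe (0.47, 0.0584). Mmp8 differed from treated TBK1-WT ∆IKKe by 0.39 ± 0.16 (edgeR adjusted p = 0.0684).

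Other proteinases of the same families moved in both directions. Of 17 other matrix metalloproteinases, 8 were expressed enough to be tested. With R837 in TBK1-WT ∆control 2 of the 8 rose and 3 fell, against 30.6% and 32% of all genes (median log2 change -0.26, against -0.04 over all genes), among the first Mmp25, a membrane-anchored enzyme of leukocytes (2.77 CPM treated, 0.0827 CPM untreated), and the stromelysin Mmp3 (1.24 CPM treated, 0.146 CPM untreated). Mmp15, close to the floor under both treatments, fell (0.0694 CPM treated, 0.320 CPM untreated). In untreated TBK1-WT ∆control Mmp25 and Mmp3 were also close to the floor. These 2 genes passed the count filter through other groups, and their rise is given as a description. Treated TBK1-cKD ∆IKKe had 4 of the 8 higher and none lower than treated TBK1-WT ∆control, against 16.7% and 15.5% of all genes (median 0.64, against -0.01 over all genes), with Mmp3 at 6.24 CPM, against 1.24 CPM in TBK1-WT ∆control (edgeR adjusted p = 0.000111), and Mmp10, another stromelysin, at 2.73 CPM, against 0.704 CPM in TBK1-WT ∆control (edgeR adjusted p = 6.18e-06). None of the 8 was called in treated TBK1-cKD ∆control or treated TBK1-WT ∆IKKe.

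Among 6 tested of 11 other ADAM genes, 3 rose and 1 fell with R837 in TBK1-WT ∆control, against 30.6% and 32% of all genes (median 0.10, against -0.04 over all genes). Adam17, the sheddase of TNF, rose by 1.43 ± 0.05 (934 CPM treated, 346 CPM untreated, edgeR adjusted p = 1.5e-15), and Adam9 by 0.37 ± 0.05. Adam22, which was close to the floor, fell (0.0678 CPM treated, 1.60 CPM untreated). In treated TBK1-cKD ∆IKKe 3 of the 6 were lower than in TBK1-WT ∆control and none was higher, against 15.5% and 16.7% of all genes (median -0.16, against -0.01 over all genes), with Adam10 at 242 CPM, against 308 CPM in TBK1-WT ∆control (log2 -0.35 ± 0.05, edgeR adjusted p = 2.85e-05), and Adam17 at 751 CPM, against 934 CPM in TBK1-WT ∆control (log2 -0.31 ± 0.05, edgeR adjusted p = 5.67e-05). Adam19 and Adam17 thus differed from TBK1-WT ∆control in opposite directions in these libraries. Of 8 tested ADAMTS genes, which encode secreted proteinases that cut proteoglycans, 2 rose and 4 fell with R837 in TBK1-WT ∆control, against the same 30.6% and 32% of all genes (median -1.05). The aggrecanase Adamts4 rose by 5.79 ± 0.16 (22.3 CPM treated, 0.395 CPM untreated, edgeR adjusted p = 8.66e-18), and Adamts1 fell (-2.65 ± 0.16, 3.19 CPM treated, 20.02 CPM untreated). Treated TBK1-cKD ∆IKKe had 3 of these 8 higher and 1 lower than TBK1-WT ∆control, against 16.7% and 15.5% of all genes (median 0.51).

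Of 6 tested inhibitors and uptake receptors other than the members, 1 rose and 2 fell with R837 in TBK1-WT ∆control, against 30.6% and 32% of all genes (median -0.21, against -0.04 over all genes). The membrane inhibitor Reck fell (-1.34 ± 0.32), as did Lrp1, the receptor that takes up proteinase complexes (-0.93 ± 0.19, 1716 CPM treated, 3279.7 CPM untreated), and Timp3 rose (0.91 ± 0.35, edgeR adjusted p = 0.0302). Activators and sheddase cofactors, 14 of 17 tested, had 9 that rose and 3 that fell, against the same shares of all genes (median 0.28). Plau, the urokinase that generates plasmin, fell with R837 in TBK1-WT ∆control (log2 -5.38 ± 0.14, 24.1 CPM treated, 1002 CPM untreated, edgeR adjusted p = 6.52e-18), while Rhbdf2, the cofactor that carries ADAM17 to the surface, rose by 1.89 ± 0.05. Treated TBK1-cKD ∆IKKe had 5 of the 14 higher and 3 lower, against 16.7% and 15.5% of all genes (median 0.09, against -0.01 over all genes). There Plaur, the urokinase receptor, was at 268 CPM, against 77.3 CPM in treated TBK1-WT ∆control (log2 1.80 ± 0.12, edgeR adjusted p = 1.95e-10), and Rhbdf2 at 369 CPM, against 182 CPM (1.02 ± 0.05, edgeR adjusted p = 1.84e-12). In treated TBK1-cKD ∆control 3 of the 14 were higher and none lower, against 4.48% and 4.41% of all genes (median 0.19, against -0.03), with Plau at 41.9 CPM, against 24.1 CPM (log2 0.80 ± 0.12). In treated TBK1-WT ∆IKKe 2 were higher and 1 lower, against 1.14% and 0.708% of all genes (median 0.13, against -0.01), with Plau at 15.7 CPM, against 24.1 CPM (log2 -0.62 ± 0.13). None of these 3 calls in either group remained when only the groups compared were fitted.

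Of 26 membrane proteins known to be shed by ADAMs, 22 were tested, and 14 rose and 5 fell with R837 in TBK1-WT ∆control, against 30.6% and 32% of all genes (median 0.90, against -0.04 over all genes). The costimulatory receptor Cd40 rose by 4.10 ± 0.18 (122 CPM treated, 7.09 CPM untreated, edgeR adjusted p = 2.81e-14). In treated TBK1-cKD ∆IKKe 10 of the 22 were higher and 2 lower than in TBK1-WT ∆control, against 16.7% and 15.5% of all genes (median 0.32, against -0.01 over all genes), with the growth factor gene Hbegf at 2.56 CPM, against 0.347 CPM (log2 2.85 ± 0.30, edgeR adjusted p = 1.88e-07). In treated TBK1-cKD ∆control 4 were higher and none lower, against 4.48% and 4.41% of all genes (median 0.18, against -0.03), with the haemoglobin scavenger receptor Cd163 at 1.21 CPM, against 0.539 CPM, and the adhesion molecule Vcam1 at 23.3 CPM, against 16.4 CPM. All 4 were lost when only those 2 groups were fitted. Treated TBK1-WT ∆IKKe had 1 higher and none lower, against 1.14% and 0.708% of all genes (median 0.17, against -0.01).

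Matrix substrates of these enzymes differed from TBK1-WT ∆control mostly downward in TBK1-cKD libraries. Of 22 genes, 21 were tested. In untreated TBK1-cKD ∆IKKe 14 of the 21 were lower and 2 higher than in TBK1-WT ∆control, against 5.1% and 8.52% of all genes (median -0.99). In untreated TBK1-cKD ∆control 9 were lower and 1 higher, against 2.65% and 2.4% of all genes (median -0.55), and the medians over all genes were 0.00 in both. After R837, 14 were lower and 5 higher in TBK1-cKD ∆IKKe, against 15.5% and 16.7% of all genes (median -0.81, against -0.01). In treated TBK1-cKD ∆control 8 were lower and 2 higher, against 4.41% and 4.48% of all genes (median -0.35, against -0.03), and the 10 calls came down to 1 when only those 2 groups were fitted. The collagen genes Col4a1 and Col4a2 stood at 5.88 and 15.7 CPM in treated TBK1-cKD ∆control, against 16.5 and 35.1 CPM in treated TBK1-WT ∆control (log2 -1.46 ± 0.21 and -1.15 ± 0.13). Col1a1, the main fibrillar collagen, was at 3.54 CPM in treated TBK1-cKD ∆IKKe, against 15.8 CPM in treated TBK1-WT ∆control (log2 -2.17 ± 0.24, edgeR adjusted p = 3.09e-07), whereas tenascin Tnc was higher, at 64.4 CPM, against 13.6 CPM (2.24 ± 0.16, edgeR adjusted p = 4.35e-10). The 9 stromal or fibroblast markers were all detected. They share Col1a1, Col1a2 and Col3a1 with this list, so their sum is not independent of it. They summed to 22.5 to 29.4 CPM in untreated TBK1-cKD ∆IKKe and 33.9 to 37.7 CPM in untreated TBK1-cKD ∆control, against 55.2 to 67.1 CPM in untreated TBK1-WT ∆control. After R837 the sums were 32.9 to 41.9 CPM in TBK1-cKD ∆IKKe, 31.5 to 40.8 CPM in TBK1-cKD ∆control and 42.1 to 55.2 CPM in TBK1-WT ∆IKKe, against 47.6 to 59.3 CPM in TBK1-WT ∆control. The part of stromal cells in these differences was not tested. With R837 in TBK1-WT ∆control 8 of the 21 rose and 3 fell, against 30.6% and 32% of all genes (median -0.10, against -0.04), with the proteoglycan Vcan, a substrate of ADAMTS proteinases, at 129.9 CPM treated and 1.30 CPM untreated (log2 6.64 ± 0.16, edgeR adjusted p = 1.15e-18), the adhesive glycoprotein Thbs1 higher by 3.73 ± 0.12 and Tgfbi higher by 2.84 ± 0.07.

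The genes whose log2 CPM ran most closely with each member over the 24 libraries, among 8649 genes, are given as a description with no test, since the libraries share 8 groups and 2 nuclear RNA levels. Mmp9 ran with H2-M2 (Pearson r = 0.984) and Jdp2 (0.982), and Mmp14 with the chemokine gene Ccl5 (0.997) and the acute-phase gene Saa3 (0.996). Mmp13 ran with Dtx2 (0.997) and the phosphatase gene Dusp16 (0.996), Timp1 with the zinc transporter gene Slc39a14 (0.995) and the chemokine gene Ccl3 (0.994), and Timp2 with the integrin gene Itgb5 (0.991) and with Sgpp1 (0.989). Adam19 ran with Dcbld2 (0.967) and the leukocyte integrin gene Itgb2 (0.928), Mmp19 with E2f3 (0.988) and Zfp281 (0.984), and Mmp8 with Klf7 (0.987) and Fam214b (0.982). The closest genes were less alike for Mmp12 (Anxa2, 0.890) and Adam8 (Afg3l2, 0.832).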

How the data were processed

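RNA from 24 libraries of mouse bone marrow-derived macrophages was measured by single-end 50-base reads from a kit that keeps no strand, per the labels' protocols. The deposited files give whole-number counts per Ensembl gene, RPKM values and a gene width for 52636 genes. The authors aligned reads with GSNAP to GRCm38, per the submitters' processing notes, while neither counting program nor annotation release is given in the sources used here. RPKM values, as deposited by the authors, divide counts by gene width and a library total, and served for comparing levels between genes. Groups were taken from the titles, the replicate numbers are only names in record order, and 0 columns of sample values were left unused.

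Counts of 14681 genes passed filterByExpr (minimum count 10, minimum total 15). They were fitted with edgeR 4.0.16 (limma 3.58.1, R 4.3.3) after TMM scaling, with 1 mean per group over all 24 libraries (16 residual degrees of freedom, common biological coefficient of variation 0.116), quasi-likelihood F tests and Benjamini-Hochberg adjustment at 0.05. A standard error is the log2 change divided by the square root of F. With 19.7 to 41.3 M gene counts per library, every member had at least 41 counts in each. Genes without a symbol (233, with 0.019% of counts) stayed in the fit. 15 comparisons were set at the start and 3 were added after the data were seen. Alternatives were RLE scaling, DESeq2 1.42.0, no count filter, a fit of the groups compared only, nuclear RNA level in the model, libraries of high level only, leaving out each library, and, added after the data were seen, leaving out the 2 treated libraries of high level. The script was tested on simulated data.

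All 10 members are named. From each list of related genes the text names at most the 3 largest changes past the threshold with R837 in TBK1-WT ∆control and at most 2 per treated genotype comparison. The members and lists were chosen with earlier results of these data known. The p-values measure the spread between libraries of individual mice within groups, pooled over the groups fitted. The fit takes all libraries as independent, and the labels give no litter, batch or day shared between groups. The titles do not say whether libraries of different groups came from the same mice, and no such pairing was fitted.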

Additional observations from a re-analysis of the deposited data

Results flagged for a closer look

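Several members responded to R837 differently in another genotype than in TBK1-WT ∆control, by a test of the difference of the log2 responses. In TBK1-cKD ∆IKKe the difference was -3.66 for Mmp9, -3.60 for Mmp14, 3.60 for Timp1, 1.46 for Mmp13, 0.43 for Adam19 and 0.36 for Mmp19. The Mmp19 difference did not pass with no count filter (edgeR adjusted p = 0.107), nor without replicate 1 or 3 of untreated TBK1-cKD ∆IKKe, replicate 3 of treated TBK1-cKD ∆IKKe, replicate 2 of untreated TBK1-WT ∆control or replicate 3 of treated TBK1-WT ∆control (edgeR adjusted p of 0.0503 to 0.0612). In TBK1-cKD ∆control it was -0.76 for Mmp9, 0.65 for Adam19 and 0.996 for Timp1, and in TBK1-WT ∆IKKe 1.04 for Timp1. For Mmp9 and Mmp14 in TBK1-cKD ∆IKKe the smaller response went with a higher untreated level, 933 and 121 CPM, against 30.9 and 5.46 CPM in untreated TBK1-WT ∆control. The same untreated libraries enter both the response and the untreated interaction below, so these are not separate results.

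The effect of ∆IKKe in TBK1-cKD cells differed from its effect in TBK1-WT cells, on the log2 scale, in comparisons added after the data were seen. In untreated cells the difference was 4.36 for Mmp14, 3.14 for Mmp9 and 0.56 for Adam19. After R837 it was 1.03 for Timp1, 0.77 for Mmp14, 0.71 for Mmp19 and 0.69 for Mmp13.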

How the results depend on the processing

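Of 2550 recomputed member values 2420 stayed on their side of the threshold, 68 fell below it, 62 passed it, and none that was called changed sign. RLE scaling changed none of its 180 member calls. Counts of all genes called moved more. In untreated TBK1-WT ∆IKKe against TBK1-WT ∆control (0 genes) the count was 4 with no count filter, 3 in the fit of the groups compared only, 3 with nuclear RNA level in the model (the level term below), 10 among libraries of high level, 3 without the 2 treated libraries of high level, 1 with DESeq2 and 0 to 5 when 1 library was left out. For untreated TBK1-cKD ∆control (742 genes) the groups compared only gave 2808, the level term 2042, high-level libraries 2996, leaving out those 2 libraries 1914, and leaving out 1 library 392 to 714 (members 2 to 4). Under the same settings untreated TBK1-cKD ∆IKKe (2000) gave 5391, 3752, 4910 and 3607, its comparison with untreated TBK1-cKD ∆control (1670) 4118, 3159, 4129 and 3005, and the untreated interaction (688) 2013, 1473, 1975 and 1388. The members called in that interaction (3) were 5, 5, 6 and 5, 5 with no count filter, and 3 to 5 when 1 library was left out. After R837, TBK1-WT ∆IKKe (272) gave 19 for the groups compared only, 519 with the level term, 492 with DESeq2 and 125 to 356 when 1 library was left out, and its members (2) 0, 4 and, when 1 library was left out, 1 to 2. The groups compared only gave 40 genes and 2 members for treated TBK1-cKD ∆control (1305 and 4; 774 to 1729 genes when 1 library was left out), 2610 for treated TBK1-cKD ∆IKKe (4725), 1864 for its comparison with treated TBK1-cKD ∆control (5067) and 982 for the treated interaction (3253; 1939 to 4263 when 1 library was left out, members 3 to 6). Differences of responses gave 23 with the groups compared only, 146 with the level term, 115 without the 2 libraries and 123 with DESeq2 in TBK1-WT ∆IKKe (36; 17 to 37 when 1 library was left out, members 0 to 1, and 0 in the groups compared only), 29, 442, 382 and 261 in TBK1-cKD ∆control (129; 47 to 142, members 2 to 4, and 1 in the groups compared only), and 4420 with the level term in TBK1-cKD ∆IKKe (2546; members 4 to 7). The cause of these shifts was not tested, including those of the fit of the groups compared only, which uses fewer libraries. Fits among high-level libraries could be made for 90 of the 180 member values. No paired analysis was made because the labels give no replicate numbers. In every untreated group, but not in every treated group, replicates 2 and 3 in record order differed least (chi-square per gene of 2.02 to 3.44 untreated). A block shared in record order was not tested. Of 80 group levels, 40 differed by more than 1 SD between TMM-scaled CPM and the RPKM scale, and of 315 list counts 26 moved by more than 1.5 times.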
